A study of Mus musculus with 45 samples.

Results

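The response of the alveolar macrophage (AM) miRNome to ozone (O3) was examined in co-ex female mice, by setting 4 mice exposed to O3 against 4 mice exposed to filtered air (FA). All 290 miRNAs listed for these 8 mice were taken, out of 476 miRNAs listed for any of the 45 mice and 6 groups of genotype and sex in the study. Co-ex mice are humanized transgenic mice of the C57BL/6J background (C57BL/6 in the labels) that carry the human genes of surfactant protein A1 (SP-A1, variant 6A2) and A2 (SP-A2, variant 1A0) and lack mouse SP-A, a lung collectin that binds microbes and modulates AM. The females of both groups were 12 weeks old and synchronized for the estrous cycle. They breathed FA, or O3 at 2 ppm, for 3 h, and AM were collected by bronchoalveolar lavage after 18 h of recovery, with 1 small RNA library per mouse. The promoter that drives the transgenes was not given in the sources used here. The series also holds mice with the SP-A2 gene alone and SP-A knockout (KO) mice.

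A miRNA is a short RNA that is cut from a hairpin precursor, loaded into an Argonaute protein and guided to mRNAs mainly by its seed, bases 2 to 8 from its 5′ end, which usually lowers the stability and translation of the target. Either arm of the hairpin can be loaded, and the names end in 5p or 3p accordingly. Many miRNAs come in families that share a seed, such as let-7, which restrains growth genes and is abundant in differentiated cells, and some are markers of lineages: miR-223 and miR-142a of blood cells, miR-143 and miR-145a of smooth muscle and other mesenchymal cells, the miR-200 family and miR-34b/c of epithelial cells, and miR-486 and miR-451a of red cells.

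The sequences below carry the main differences, and capitals mark the seed. The let-7 members shown include let-7c-5p, which rose after O3, its closest neighbours, and let-7e-5p, which lies in another cluster.

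let-7c-5p: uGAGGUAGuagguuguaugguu

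let-7b-5p: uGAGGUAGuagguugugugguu

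let-7a-5p: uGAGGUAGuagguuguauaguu

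let-7e-5p: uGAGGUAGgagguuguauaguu

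Counted from the 5′ end, let-7c-5p differs from let-7a-5p by A19G alone, and let-7b-5p from let-7a-5p by A17G and A19G. The let-7e-5p sequence differs from let-7a-5p by U9G. With 1 or 2 bases between members, a read with an error can be counted for a neighbour, and how the authors' counting treated such reads was not given in the sources used here. The next sets hold miR-125b-5p and miR-10a-5p, which rose, and miR-100-5p, which was near the top of the ranking. Beside them stand miR-125a-5p and miR-99b-5p, with the seeds of miR-125b-5p and miR-100-5p but differences below 0. miR-99a-5p, also with the seed of miR-100-5p, was higher after O3 without passing (limma adjusted p = 0.278).

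miR-125b-5p: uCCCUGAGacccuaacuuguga

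miR-125a-5p: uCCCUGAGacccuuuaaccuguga

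miR-100-5p: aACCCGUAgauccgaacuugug

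miR-99a-5p: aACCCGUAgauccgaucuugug

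miR-99b-5p: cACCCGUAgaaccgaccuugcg

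miR-10a-5p: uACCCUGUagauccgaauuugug

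From miR-99a-5p to miR-100-5p the single change is U16A. The seed of miR-10a-5p is close to that of the miR-99 and miR-100 sequences but is another seed. The last set shows epithelial miRNAs of the miR-200 family with a common seed, and miR-199b-3p, a mesenchymal miRNA.

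miR-200b-3p: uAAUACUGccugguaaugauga

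miR-200c-3p: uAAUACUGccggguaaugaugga

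miR-429-3p: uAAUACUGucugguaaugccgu

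miR-199b-3p: aCAGUAGUcugcacauugguua

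These sequences are from RefSeq on GRCm38.p6, in which 249 of the 290 listed names were found.

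The libraries differed in depth and in how many of the listed miRNAs they held. Reads on the listed miRNAs ranged from 210710 to 751828 in the FA mice and from 434592 to 2274203 in the O3 mice. The FA mice had a nonzero value for 80.7, 81.0, 82.4 and 63.1% of the 290 miRNAs, and the O3 mice for 89.0, 80, 82.8 and 94.1%. FA replicate 4, the mouse with 63.1%, stood apart from the other 7 on the first principal component (-48.6, against -10.03 to 19.69), so results that rest on it are given with and without it. The mean number detected was 222.75 ± 26.6 (SD, n = 4) after FA and 250.75 ± 18.4 (n = 4) after O3, a difference of 28 that did not pass a two-sided exact permutation test (p = 0.171; the smallest p that 4 against 4 mice allow is 0.0286). Brought to an equal number of reads, the difference was 22.2 miRNAs. A miRNA at 0 may still have up to 3 reads by counting error alone, which corresponds to a normalized value between 1.11 and 9.77 depending on the mouse. Within groups, the Spearman correlation between mice across miRNAs ranged from 0.663 to 0.841 over 12 pairs, and no pair agreed within sampling noise.

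The AM signal was concentrated in a few miRNAs. The 10 with the highest means held between 47.8 and 63.6% of the listed signal of a mouse: let-7a-5p, miR-125a-5p, miR-30d-5p, let-7f-5p, miR-486b-5p, let-7c-5p, miR-21a-5p, let-7b-5p, let-7d-5p and miR-146b-5p, in this order. The blood lineage marker miR-223-3p was present in all 8 mice, at 2837, 3920, 1875 and 838 after FA and 3470, 2110, 1763 and 3050 after O3. Its range after O3 lay within that after FA. The other blood cell marker, miR-142a-3p, was at 0 in FA replicates 1 and 4 and in O3 replicate 3, and reached 1004 in FA replicate 3. With both arms of each, 3 of these 4 miRNAs had a log2 difference above 0, with a median of 0.23 (0.31 for all 290). Without FA replicate 4, 0 of the 4 were above 0, with a median of -0.74 (0.04 for all). In edgeR 2 were above 0, with a median of -0.69 (0.02 for all). None of the 4 was called by limma or edgeR.

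O3 raised 4 miRNAs and lowered none at the false discovery rate (FDR) of 0.1 of the study, in limma on log2(normalized value + 1) with Benjamini-Hochberg adjustment. The 4 were let-7c-5p, miR-143-3p, miR-125b-5p and miR-10a-5p, 1.38% of the 290 tested. On recovered reads, edgeR called none of the 290 and DESeq2 called 14, these 4 with let-7b-5p, miR-2137, miR-199b-3p, miR-200b-3p, miR-214-3p, miR-100-5p, miR-151-5p and miR-320-5p as higher and miR-1843b-3p and miR-466q as lower. At an unadjusted p under 0.05 limma gave 25 higher miRNAs (8.62%) and 5 lower (1.72%), and edgeR 20 in all. Without regard to size, 169 of 290 differences were above 0 (58.3%) and 121 below (41.7%), with a median of 0.31 on the log2 scale, which was 0.04 without FA replicate 4 and 0.20 after a median-ratio rescaling of the mice. In edgeR 146 of 290 were above 0, with a median of 0.02. These log2 differences are between means of logarithms. Where mice of a group are at or near 0, they can be far larger than an estimate from the reads. That estimate, or the group means, is given for many of the miRNAs most affected.

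let-7c-5p was the most abundant of the 4, with normalized values of 16264, 9678, 19694 and 5669 in the FA mice and 51635, 32139, 59117 and 95568 in the O3 mice. The lowest O3 mouse was above the highest FA mouse. This was a log2 difference of 2.26 ± 0.50 (SE, n = 4 and 4, 95% interval 1.23 to 3.30; limma adjusted p = 0.0225), or 4.65-fold between means. Without FA replicate 4 it was 1.92 (limma adjusted p = 0.0941). The share of let-7c-5p in the listed signal was 0.73 to 2.17% after FA and 3.81 to 9.11% after O3. Its hairpins lie at chr16:77599657-77599750 (+ strand), in an intron of the noncoding gene Mir99ahg, and at chr15:85706603-85706697 (+ strand), within Lncppara (both GRCm38.p6), and the mature sequence does not tell these sources apart.

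miR-143-3p, a miRNA of smooth muscle and other mesenchymal cells, had the largest difference of the 4. It stood at 40.0, 114, 632 and 1.24 after FA and at 5906, 733, 2919 and 3195 after O3. The groups did not overlap, but FA replicate 3 came close to O3 replicate 2, and the value of 1.24 in FA replicate 4 is that of a single read. The log2 difference was 5.63 ± 1.26 (limma adjusted p = 0.0225), and 4.13 without FA replicate 4. The edgeR estimate was 3.90, and the ratio of means 16.2.

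miR-125b-5p, which is known to dampen apoptosis and differentiation genes, was measured at 731, 423, 2261 and 467 in the FA mice. In the O3 mice it reached 3205, 4206, 7135 and 4962. Every O3 mouse was above every FA mouse, and FA replicate 3 was far above the other FA mice. The log2 difference was 2.63 ± 0.59 (limma adjusted p = 0.0225), and 2.39 without FA replicate 4. A hairpin of miR-125b-5p, Mir125b-1, lies at chr9:41581926-41582002 (+ strand), in introns of the noncoding genes 3110039I08Rik and Gm49317 and in an exon of the noncoding Gm28119.

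miR-10a-5p, encoded in a Hox cluster, gave 179, 296, 154 and 84.4 after FA and 935, 679, 1253 and 2455 after O3. All O3 mice exceeded all FA mice. The log2 difference of 2.86 ± 0.77 was only just called (limma adjusted p = 0.0969), and the call was lost without FA replicate 4 (limma adjusted p = 0.143). Its hairpin lies at chr11:96317165-96317274 (+ strand), with no other gene on that strand.

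The calls depended on single mice. Without FA replicate 1, or without FA replicate 2, no miRNA passed in limma, while the 4 differences stayed above 0 in all these fits. Without FA replicate 3, in which miR-143-3p and miR-125b-5p were highest among the FA mice, 13 passed, the same 4 among them. Leaving out O3 replicate 1 gave 2 calls and leaving out O3 replicate 2 gave 8.

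**Figure D1:**
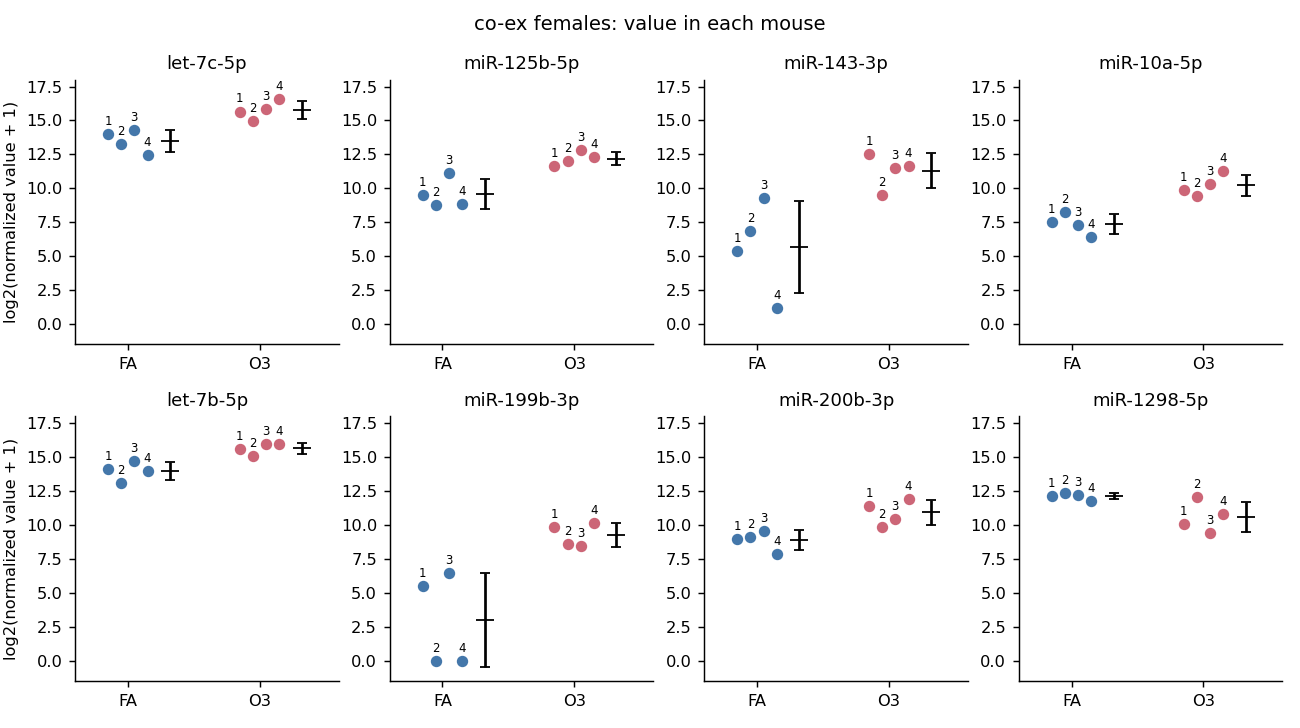
The plot gives log2(normalized value + 1) in each mouse for 8 miRNAs, with the replicate number above each point and the mean with its SD at the side. The 4 miRNAs of the upper row passed the FDR of 0.1, and in those and in let-7b-5p, miR-199b-3p and miR-200b-3p every O3 mouse lay above every FA mouse, while for miR-1298-5p O3 replicate 2 lay within the FA range.

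Among the let-7 members, the difference was uneven. Beside let-7c-5p, let-7b-5p had non-overlapping groups, at 18049, 8764, 26788 and 16224 after FA and 48493, 34906, 65430.2 and 62841 after O3. Its log2 difference of 1.67 ± 0.46 narrowly missed the threshold (limma adjusted p = 0.106), and DESeq2 called it (adjusted p = 0.0362). The most abundant member, let-7a-5p, stood at 112530.2, 89375, 93977 and 75853 after FA and 148009, 100328, 76335 and 179558 after O3, and its groups overlapped (log2 difference 0.38 ± 0.46). For let-7e-5p the values were 29644, 20474, 23187 and 37419 after FA and 30521, 26348, 13278 and 23773 after O3. These groups overlapped as well (-0.26 ± 0.45). In all, 8 of the 10 listed members of the let-7 and miR-98 family had a difference above 0, against 58.3% of all miRNAs, with a median of 0.62 against 0.31, and 1 was called, against 1.38% of all.

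The ratio of 2 family members within a mouse does not depend on how the mouse was scaled. let-7c-5p amounted to 14.5, 10.8, 21.0 and 7.47% of let-7a-5p in the FA mice and to 34.9, 32.0, 77.4 and 53.2% in the O3 mice. let-7b-5p amounted to 16.0, 9.81, 28.5 and 21.4% of let-7a-5p after FA and 32.8, 34.8, 85.7 and 35.0% after O3. Neither ratio overlapped between the groups. By contrast, let-7c-5p relative to let-7b-5p ranged from 34.9 to 110% after FA and from 90.4 to 152% after O3, with overlap. These pairs were picked after their values were seen and were not tested. let-7b and a hairpin of let-7c, Mirlet7c-2, lie together at chr15:85706603-85707403. The other listed products of this cluster, both at low levels, went apart, with 2.69 ± 2.24 for let-7b-3p and -3.03 ± 1.98 for let-7c-2-3p, and neither passed.

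A like split appeared in the families of miR-125 and of miR-99 and miR-100, whose genes stand beside let-7 genes in the genome. While miR-125b-5p rose, miR-125a-5p had 65007, 54529, 46506 and 172412 in the FA mice and 39889, 91990, 51888 and 33447 in the O3 mice. The groups overlapped (-0.54 ± 0.51), and FA replicate 4 was far above all other mice. miR-125b-5p was between 0.271 and 4.86% of miR-125a-5p after FA and between 4.57 and 14.8% after O3, with overlap through FA replicate 3 and O3 replicate 2.

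miR-100-5p, a relative of miR-10a that targets mTOR, was at 0 in 3 FA mice and at 48.8 in FA replicate 2. In the O3 mice it had values of 227, 570, 163 and 332. The groups did not overlap, yet the log2 difference of 6.77 ± 2.22 did not pass in limma (adjusted p = 0.178). It was 4.52 in edgeR and 4.70 in DESeq2, which called it (adjusted p = 0.099). miR-99a-5p had 219, 146, 481 and 0 after FA and 1340, 157, 1225 and 1641 after O3, with O3 replicate 2 inside the FA range (3.69 ± 1.51). Beside this 3.69, its group means were 212 (FA) and 1091 (O3). For miR-99b-5p, the values were 12919, 11948, 10779 and 19390 after FA and 3583, 12690, 10857 and 5678 after O3, again with overlap (-0.88 ± 0.48).

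Arranged by position, miR-99a-5p and let-7c-5p, which share the intron of Mir99ahg at chr16:77598936-77599750, had differences of 3.69 and 2.26. The 4 listed products of let-7e and miR-125a, side by side at chr17:17830352-17830879 in Spaca6, all had differences below 0, from -1.68 to -0.02. None of these 4 was called by limma, edgeR or DESeq2 or had an unadjusted p under 0.05 in limma.

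**Figure D2:**
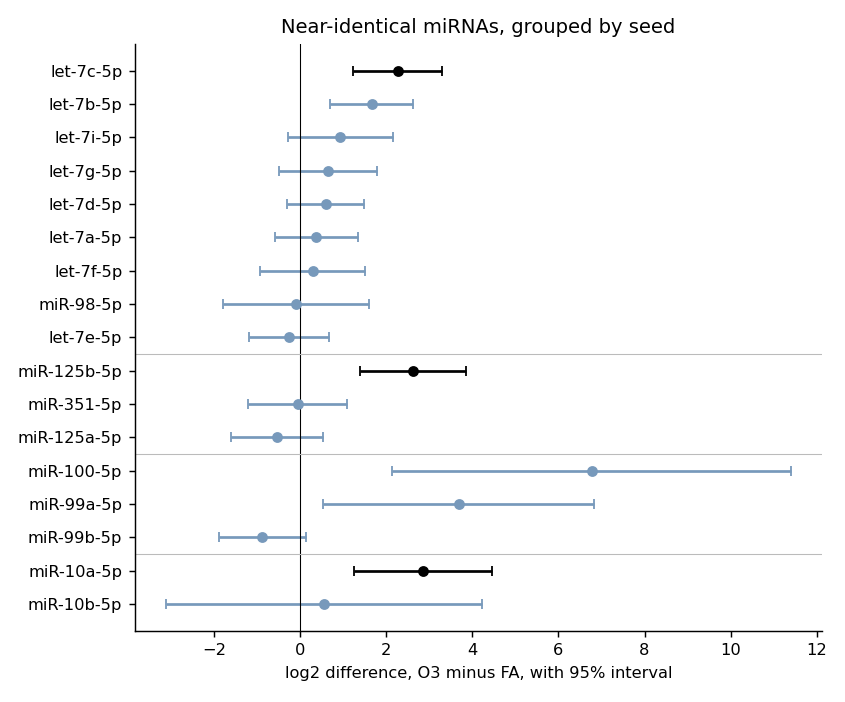
Each point is the log2 difference of O3 minus FA of a miRNA with its 95% interval from limma, and lines part the seeds of let-7, of miR-125, of miR-99 and miR-100, and of miR-10. Black points, let-7c-5p, miR-125b-5p and miR-10a-5p, passed the FDR of 0.1, while members with the same seed, such as let-7e-5p (-0.26) and miR-125a-5p (-0.54), had intervals that include 0.

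Of 21 miRNAs on a list typical of mesenchymal cells, 12 were in the table, and 3 of the 4 called miRNAs, miR-143-3p, miR-125b-5p and miR-10a-5p, are on it. All 12 had a difference above 0, against 58.3% of all miRNAs, with a median of 3.89 (without FA replicate 4, 11 of 12 and 3.47, and in edgeR 11 of 12 and 2.96). At 0 were 4, 3, 6 and 8 of the 12 in the FA mice and 1, 3, 0 and 0 in the O3 mice. A miRNA is listed here with a nonzero value in at least 4 of the 8 mice. Members at 0 in most FA mice are thus listed through the O3 mice, and their sign is largely set by this. Groups did not overlap for 6 of the 12, each higher after O3, against 17 of 290 miRNAs (5.86%). Summed, the list made up 0.201, 0.162, 0.425 and 0.0831% of the listed signal after FA and 1.36, 0.852, 1.71 and 1.39% after O3. The lowest O3 mouse thus held more than the highest FA mouse. This sum includes the 3 called miRNAs, so it is not separate support. Of them, miR-125b-5p alone held 0.0601 to 0.246% after FA and 0.328 to 0.785% after O3. In bulk samples a change in the number of cells of a type and a change in RNA per cell cannot be told apart, and the part of other cells in the changes of these 3 miRNAs was not tested.

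Among the members of this list that did not pass in limma, miR-199b-3p, from the miR-199 and miR-214 group of fibroblasts and muscle, was at 43.1, 0, 87.9 and 0 after FA and at 926, 379, 349 and 1119 after O3. miR-214-3p had 83.1, 61.9, 0 and 93.1 after FA and 329, 371, 1441 and 354 after O3. Neither pair of groups overlapped, and the log2 differences were 6.27 ± 1.86 and 4.24 ± 1.56 (limma adjusted p = 0.147 and 0.241). The edgeR estimates were 4.40 and 3.16, and DESeq2 called both (adjusted p = 0.0304 and 0.0985). The defining marker miR-145a-5p differed by 5.08 ± 2.17 with 2 FA mice at 0. Beside this 5.08, its group means were 74.2 (FA) and 335 (O3), and its groups overlapped. miR-133a-3p and miR-1a-3p of striated muscle were not in the table.

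The epithelial list gave a weaker picture. Here 14 of 18 miRNAs were listed, none was called by limma or edgeR and 1, miR-200b-3p, was by DESeq2, 6 had an unadjusted p under 0.05 in limma, against 8.62% of all miRNAs higher at that level, and all 14 differences were above 0, against 58.3%. Their median was 3.90 (1.89 in edgeR, also with 14 above 0), and 1.88 with 13 above 0 without FA replicate 4, in which 11 of the 14 were at 0. The other FA mice had 5, 3 and 4 at 0 and the O3 mice 1, 2, 0 and 0, so the limit from the listing holds here as well. miR-200b-3p, which with its family keeps the epithelial state by restraining ZEB1 and ZEB2, had 488, 553, 757 and 228 after FA and 2743, 913, 1416 and 3940.5 after O3. No O3 mouse fell within the FA range (2.05 ± 0.65; limma adjusted p = 0.177). The related miR-200c-3p, from another chromosome, gave 2087, 1546, 2867 and 529 after FA and 2546, 2944, 6951 and 6075 after O3, with overlap (limma adjusted p = 0.272). All 5 listed products of the cluster of miR-200b, miR-200a and miR-429 at chr4:156053905-156055750 (- strand) had differences above 0, from 1.08 to 5.16.

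miR-34b and miR-34c, abundant in ciliated airway cells, also had higher values after O3. miR-34c-5p was at 154, 0, 0 and 0 after FA and 203, 572, 372 and 396 after O3. miR-34b-3p was at 573, 570, 1521 and 0 after FA and 1601, 2530, 8881 and 2337 after O3. Both had non-overlapping groups without passing the test (6.68 ± 2.21 and 4.34 ± 1.49). The estimates from reads were much smaller, at 3.21 and 2.45 in DESeq2, and the ratios of means 10.03 and 5.76. Without FA replicate 4 the difference of miR-34b-3p was 1.93. Summed over the epithelial list, the share of the signal was 0.602, 0.588, 0.835 and 0.108% after FA and 1.03, 1.08, 3.73 and 1.74% after O3.

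**Figure D3:**
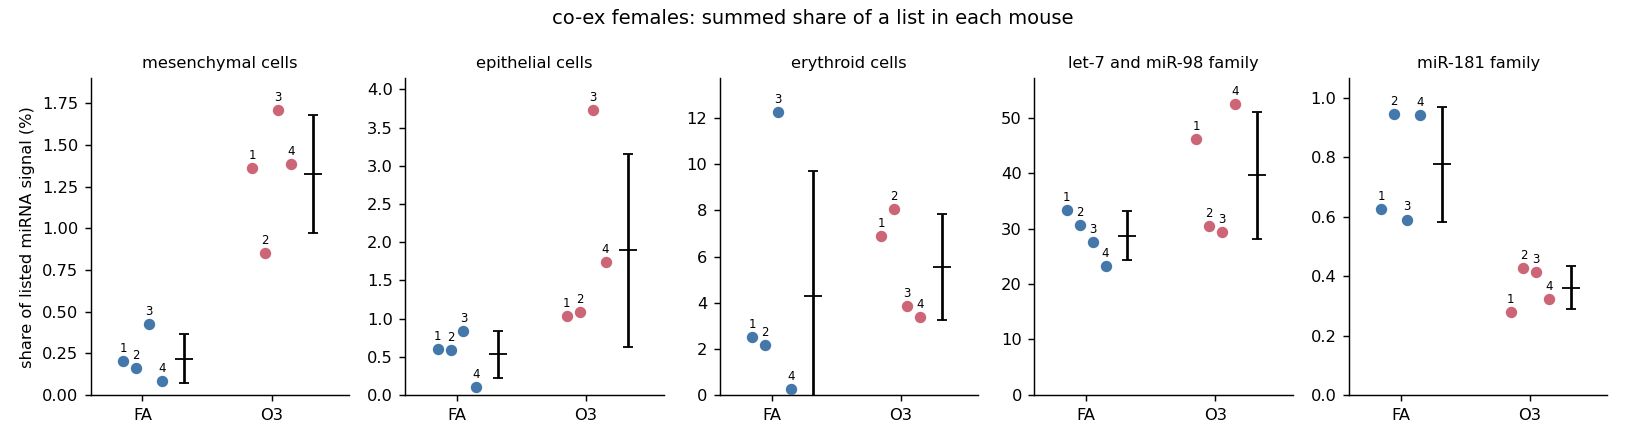
The panels show the summed share of a list in the listed signal of each mouse, in percent from 0, with replicate numbers and the mean ± SD at the side (bars end at 0). The mesenchymal share was 0.0831 to 0.425% after FA and 0.852 to 1.71% after O3, and the miR-181 share 0.591 to 0.947% and 0.278 to 0.429%, while the erythroid and let-7 shares overlapped.

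For the listed red cell and lymphoid miRNAs the groups overlapped. miR-486b-5p, a red cell miRNA and the fifth most abundant, was at 18831, 14721, 112668 and 2007 in the FA mice and 67352, 68158, 34927 and 35424 in the O3 mice. FA replicate 3 had the highest and FA replicate 4 the lowest value of all, so the FA range enclosed all O3 mice (1.63 ± 0.78, and 0.63 without FA replicate 4). The other listed red cell miRNA, miR-451a, was at 0 in FA replicates 2 and 4 and differed by 2.24. The median of these 2 red cell miRNAs was 1.93, and 1.21 without FA replicate 4, and neither was called. The 2 endothelial markers, both arms of miR-126a, were not in the table, so nothing can be said of them. The lymphoid miRNAs miR-150-5p and miR-150-3p had differences of 0.20 and -0.50.

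miRNAs of the inflammatory response in macrophages did not move together. Of 8 listed, 4 were above 0, against 58.3% of all miRNAs, and 4 below. None was called by limma, edgeR or DESeq2, beside 1.38% of all called by limma. None had an unadjusted p under 0.05 in limma, beside 8.62% of all higher and 1.72% lower. The even split rested on FA replicate 4. Without it 2 of 8 were above 0, and the median went from -0.07 to -0.48, against 0.04 for all miRNAs. In edgeR 4 were above 0, with a median of 0.25. miR-21a-5p, induced in many inflamed tissues, had 32735, 56892, 79624 and 15212 after FA and 35246, 28156, 8047 and 32378 after O3. miR-155-5p, an inducer of inflammatory cytokine production, had 634, 700, 828 and 1139 after FA and 1106, 59.4, 186 and 5540 after O3. miR-146b-5p, a brake on Toll-like receptor signalling, had 30374, 28541, 40430.0 and 14309 after FA and 41513, 21204, 10062 and 34835 after O3. In all 3 the groups overlapped, and for miR-155-5p the O3 mice spread more widely than the FA mice, with O3 replicate 4 on top and O3 replicate 2 at the bottom.

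The miR-181 family, which tunes the signalling strength of lymphocytes and myeloid cells, lay on the other side. All 5 of its listed members had differences below 0, against 41.7% of all miRNAs, with a median of -1.15 (-0.61 without FA replicate 4 and -1.46 in edgeR, each with 1 above 0), and none was called by limma, edgeR or DESeq2 or had an unadjusted p under 0.05 in limma. miR-181a-5p was at 3343, 5948, 3702 and 5849.5 after FA and at 2481, 2839, 3099 and 2602 after O3. Each O3 mouse was below each FA mouse, as for 6 of the 290 miRNAs (2.07%), though the difference of -0.73 ± 0.46 did not pass (limma adjusted p = 0.596). Its partner miR-181b-5p had 697, 485, 1494 and 833 after FA and 199, 76.9, 452 and 650 after O3, with overlap (-1.63 ± 0.81).

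**Figure D4:**
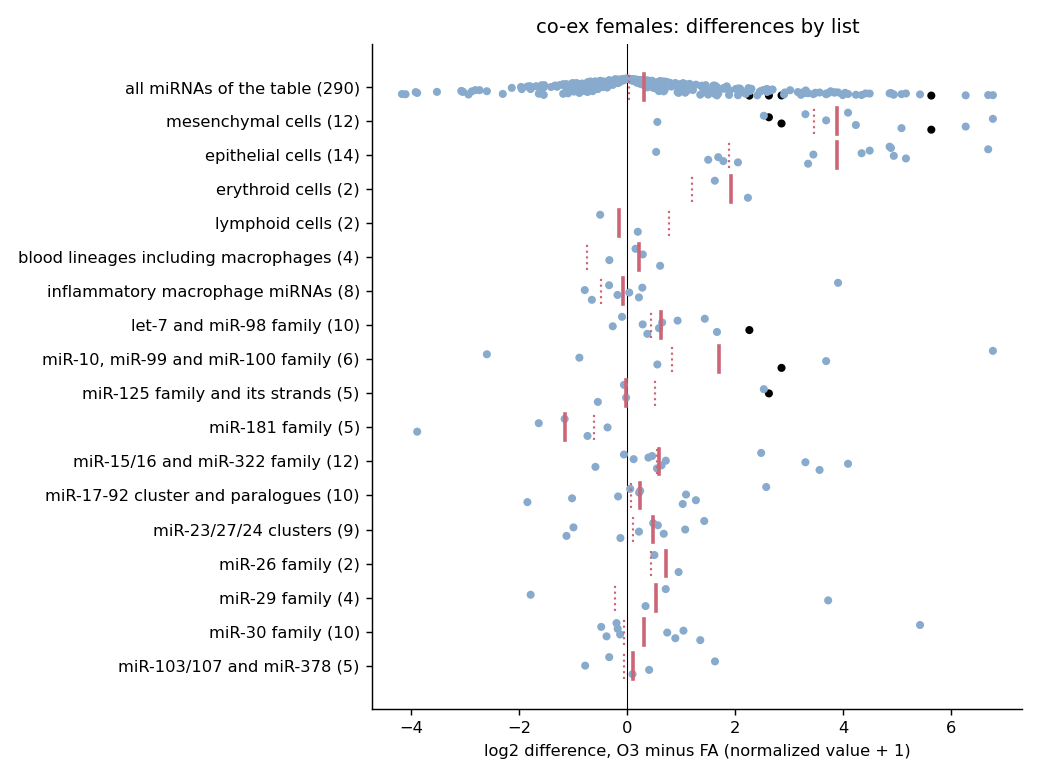
Every point is the log2 difference of O3 minus FA of a miRNA, by list, with the number of listed members in brackets, and black points passed the FDR of 0.1. Solid bars are medians over all 8 mice and dotted bars are medians without FA replicate 4, which moved the epithelial median from 3.90 to 1.88 and the mesenchymal one from 3.89 to 3.47.

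Most families of cell cycle and general regulators had median differences between 0.10 and 0.60, against 0.31 for the whole table. Medians were 0.23 for 10 members of miR-17-92 and its paralogues (-0.28 in edgeR), 0.60 for 12 of miR-15/16 and miR-322, 0.48 for 9 of the miR-23/27/24 clusters, 0.53 for 4 of miR-29, 0.31 for 10 of miR-30 and 0.10 for 5 of miR-103, miR-107 and miR-378. From miR-15/16 on, the edgeR medians were 0.87, 0.43, 0.02, 0.42 and 0.08, against 0.02 for the table. The medians of miR-15/16 and miR-322, miR-23/27/24 and miR-30 thus lay furthest above the table in edgeR. Without FA replicate 4 they were 0.55, 0.11 and -0.05, against 0.04. The members miR-195a-5p and miR-497a-5p of miR-15/16 and miR-322 are also on the mesenchymal list. The miR-26 family, with 2 listed members, had a median of 0.73 (0.91 in edgeR and 0.45 without FA replicate 4). No member of these families was called by limma, edgeR or DESeq2. An unadjusted p under 0.05 in limma was found for 3, miR-195a-5p, miR-30a-5p and miR-30e-3p. miR-16-5p, which restrains G1 cyclins, had 1182, 3682, 2829 and 1423 after FA and 11382, 1229, 1002 and 7363 after O3. O3 replicates 1 and 4 were thus above all FA mice while the other O3 mice were within or below their range. O3 replicates 1 and 4 also had the 2 highest values of let-7f-5p, 82132 and 99856, while replicates 2 and 3, at 21521 and 14776, were among the lower mice. miR-30a-5p was an exception within its family, with 1291, 1751, 3839 and 1177 after FA and 4637, 3984, 4467 and 5329.7 after O3. Its groups did not overlap (1.36 ± 0.51; limma adjusted p = 0.242).

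Some of the miRNAs ranked next were high in a single O3 mouse. miR-92b-3p, which shares its seed with miR-92a-3p, was at 4151, 2110, 8573 and 4430 after FA and at 9725, 11805, 86393 and 6307 after O3. miR-2137 was at 2007, 589, 1498 and 333 after FA and at 5336, 1789, 24995 and 1986 after O3. O3 replicate 3 held the top value of both, and in both the groups overlapped. miR-151-5p, by contrast, was higher in all O3 mice, at 982, 400, 1016 and 685 against 162, 68.4, 168 and 1.24 after FA (3.99 ± 1.32, 2.54 without FA replicate 4 and 2.84 in edgeR; limma adjusted p = 0.178).

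Toward lower values after O3, miR-1298-5p had the smallest p. It was even in the FA mice, at 4578, 5173, 4762 and 3543, and was 1078, 4217, 682 and 1796 after O3. O3 replicate 2 was like the FA mice, and the difference of -1.54 ± 0.56 did not pass (limma adjusted p = 0.239). miR-1964-3p was at 303, 166, 186 and 546 after FA and at 0, 122, 43.9 and 8.11 after O3, without overlap (-4.16 ± 1.85, and -2.82 in edgeR; limma adjusted p = 0.363). Of the 5 lower miRNAs with an unadjusted p under 0.05, 4 have names with a 4-digit number (miR-1298-5p, miR-8111, miR-1964-3p and miR-1843b-3p). This is a class of 63 of the 290 listed miRNAs with a median difference of 0.12 (-0.26 in edgeR), and 33 of the 63 were above 0. At the same level 2 of the class, miR-2137 and miR-6538, were higher after O3.

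Only miR-706 and miR-8111 were at 0 in a whole group. The first was at 0 in the 4 FA mice and at 1.12, 39.4, 6.27 and 11.1 after O3. For miR-8111 the order was the reverse, with 21.5, 29.3, 1.22 and 1.24 after FA and 0 in the 4 O3 mice. A miRNA is listed here with a nonzero value in at least 4 of the 8 mice, so a miRNA missing from a whole group could only be listed with a full split, and these values are near the limit of counting.

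**Figure D5:**
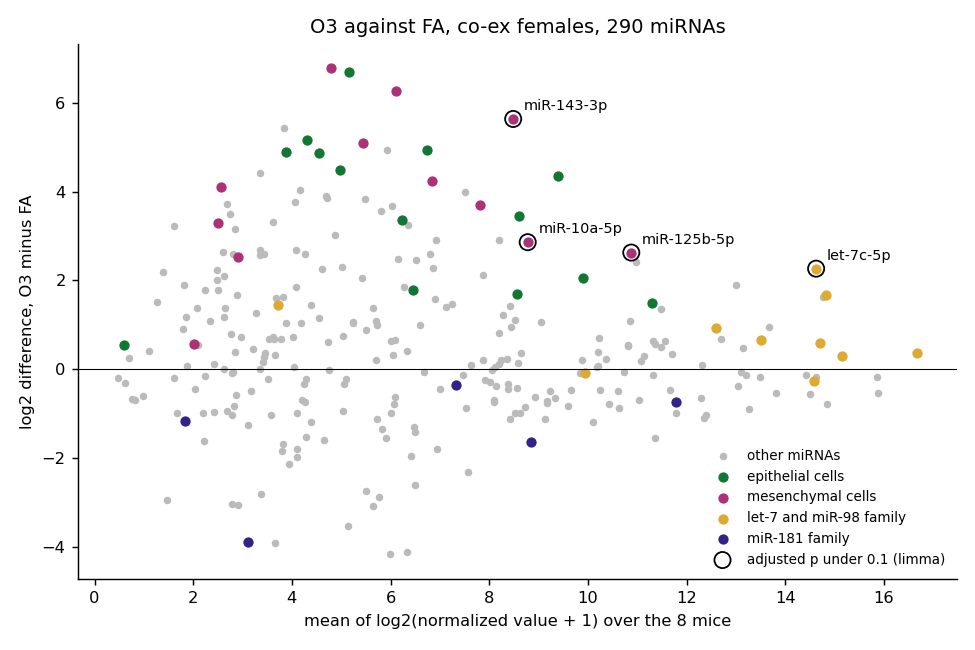
Each of the 290 miRNAs is placed by its mean log2(normalized value + 1) over the 8 mice and by its log2 difference of O3 minus FA. Differences up to 6.77 were found at low levels, where single mice are at 0, and the circled miRNAs that passed the FDR of 0.1 are let-7c-5p at a high level and miR-143-3p, miR-125b-5p and miR-10a-5p at middle levels, while the miR-181 members lie below 0.

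Across the table, the differences had little relation to composition or to the other arm of the hairpin. Over the 249 miRNAs with a sequence, the Spearman correlation of the log2 difference with the GC percentage was -0.089 and with length -0.057. In 56 hairpins both arms were listed, and the 2 arms had the same sign in 33 of them (Spearman 0.14). The arms of a hairpin come from 1 precursor and the miRNAs share libraries, so these are descriptions.

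To ask whether the response was particular to sex or genotype, the difference between responses was tested as an interaction in limma. Against co-ex males, 217 miRNAs could be compared and none passed the FDR of 0.1, with 3 at an unadjusted p under 0.05 (1.38%). Against KO females none of 253 passed, with 10 at an unadjusted p under 0.05 (3.95%). Against SP-A2 females none of 283 passed, with 9 at an unadjusted p under 0.05 (3.18%). In the same order, edgeR called none and had 5, 5 and 11 at an unadjusted p under 0.05. With 3 or 4 mice per group these tests had little reach, and a miss does not show that the responses were alike.

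let-7c-5p had a log2 difference of 2.26 here, beside 0.66 among co-ex males, 0.33 among KO females and 1.09 among SP-A2 females. The gap to KO females was 1.93 ± 0.82 (limma adjusted p = 0.916), the gap to co-ex males 1.61 ± 0.82 (limma adjusted p = 0.989) and the gap to SP-A2 females 1.17 ± 0.73 (limma adjusted p = 0.833). miR-143-3p was higher after O3 in each of these groups as well, by 2.51 in SP-A2 females, 2.83 in KO females and 2.72 in co-ex males, none of which passed. For miR-125b-5p the responses of co-ex and SP-A2 females were 2.63 and 2.60, with a gap of 0.02 ± 0.87, and the latter passed within its own table (limma adjusted p = 0.0726), where 4 of 373 miRNAs did (1.07%). The differences of co-ex males and KO females were 1.14 and 1.16. miR-10a-5p differed by 1.55 in SP-A2 females, 3.50 in KO females and 3.42 in co-ex males. No gap for these 4 passed the test. miR-200b-3p had a difference of 2.05 here, against 0.15 in SP-A2 females, 1.03 in KO females and 1.33 in co-ex males.

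The smallest p of an interaction belonged to miR-706 against co-ex males, miR-486b-5p against KO females and miR-34c-5p against SP-A2 females. miR-486b-5p differed by 1.63 here and by -2.33 in KO females, a gap of 3.95 ± 1.34 (limma adjusted p = 0.916). miR-34c-5p differed by 6.68 here and by 0.27 in SP-A2 females, a gap of 6.41 ± 2.19 (limma adjusted p = 0.833). The gap for miR-706 was 3.69 ± 1.33 and rests on values near the counting limit (limma adjusted p = 0.989). Of the others among the 3 smallest in each comparison, the epithelial miR-205-5p differed by 4.86 in co-ex females and -2.75 in co-ex males. The p53-induced miR-34a-5p differed by -0.97 and 5.09. Beside this 5.09, its male group mean hardly moved, from 231 (FA) to 225 (O3). The male group mean of miR-205-5p went from 233 to 117. miR-1964-3p and miR-664-5p had -4.16 and -3.52 in co-ex females against 1.31 and 3.65 in KO females. Beside the 3.65, the KO means of miR-664-5p were 96.7 (FA) and 120 (O3). let-7c-2-3p and miR-30e-3p had -3.03 and 5.42 in co-ex females against 3.06 and 0.26 in SP-A2 females. From reads, edgeR put the co-ex female differences at 1.13 for miR-205-5p, -0.68 for miR-34a-5p and -2.82 for miR-1964-3p. It gave -1.59 for miR-664-5p, -2.51 for let-7c-2-3p and 4.57 for miR-30e-3p. The larger log2 differences here are thus not to be read as ratios of means.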

How the data were processed

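Small RNA libraries were made with the NEXTflex kit and sequenced on an Illumina HiSeq. The values deposited by the authors are a normalized signal, reads divided by a factor per mouse, in 6 tables split by genotype and sex. Levels were therefore compared only within a table. Per the labels, CASAVA and edgeR were used. The aligner, miRNA reference and build were not given in the sources used here. The deposited p-value, q-value and ranking were not used. The members and lists were chosen with earlier results of these data known.

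O3 was compared with FA with limma 3.58.1 (trend, R 4.3.3) on log2(normalized value + 1), as differences on that scale, which depend on the added 1 and can be far larger or smaller than a ratio of means where mice are at 0, with an FDR of 0.1 by the Benjamini-Hochberg method, and responses were compared as interactions over miRNAs of both tables. Each mouse was 1 sample, with its group from its title. Numbers detected were compared by a two-sided exact permutation test.

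Each value was a whole multiple of the smallest of its column, taken as 1 read, but only 22 to 64 values per mouse lay within 20 steps, fewer than the 100 of a strict test of recovery. Read totals, and the alternatives edgeR 4.0.16 (TMM, quasi-likelihood) and DESeq2 1.42.0, rest on this. Totals cover listed miRNAs, not libraries, and limits from counts cover counting error only. Median-ratio rescaling, added values of 0.1 and 10, a minimum of 10 in 4 mice or more, an FDR of 0.05, the replicate number as a block, and leaving out each mouse were also tried. On simulated libraries spread like the O3 and FA co-ex females, limma recovered 55% and edgeR 35% of 60 miRNAs changed 8-fold among 290, and the interaction 13.3%. The changed miRNAs were drawn from those above a minimum mean and all were raised, so these rates do not cover the low miRNAs. For the interaction, the second set of mice was also simulated from the co-ex females.

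Named miRNAs were those called, the 20 with the smallest p, the 10 with the highest means, the most abundant and the smallest p of each list, those named in the study, the 3 smallest p of each interaction, and seed relatives of called miRNAs. The miRNAs miR-99a-5p, miR-142a-3p, miR-145a-5p and miR-150-3p, the pairs set in ratio and the clusters were chosen after their values were seen.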

Additional observations from a re-analysis of the deposited data

Results flagged for a closer look

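In 10 of the 78 groups of 4 mice examined (34 miRNAs by exposure, 5 summed lists and the share of miRNAs detected, less 2 groups with every mouse at 0), 1 mouse lay far from the other 3 by Dixon's criterion. Chance flags about 1 in 20 groups only where values are normally distributed. Here the criterion was applied to values without a logarithm, and a group with 3 mice at 0 and 1 above is always flagged. The miRNAs also share the same mice, so the count of 10 is not to be read as an excess. FA replicate 3 was highest for miR-125b-5p (2261.1) and for the red cell miRNA miR-486b-5p (112668.1). FA replicate 4 was highest for miR-125a-5p (172411.6) and lowest in the share of the listed miRNAs detected (63.1%). FA replicate 2 was the only FA mouse with a nonzero value of miR-100-5p (48.8), and FA replicate 1 the only one with a nonzero value of miR-34c-5p (153.9). O3 replicate 3 was highest for miR-34b-3p (8880.9), miR-92b-3p (86393.3), miR-2137 (24994.8) and miR-214-3p (1440.8). No difference in response between sexes or genotypes passed its test.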

How the results depend on the processing

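The count of 4 called miRNAs was 0 with edgeR (20 at an unadjusted p under 0.05) and 14 with DESeq2 (12 higher, 2 lower, the same 4 among them), and the cause was not tested. It stayed between 3 and 5 under the other settings of pseudocount, filter, rescaling and FDR, each with 3 or 4 of the same miRNAs. With each mouse left out in turn it ranged from 0 (without FA replicate 1 or FA replicate 2) to 13 (without FA replicate 3), with 2 without O3 replicate 1 and 8 without O3 replicate 2. let-7c-5p and miR-125b-5p kept their call in 6 of 8 of these fits, miR-143-3p in 5 and miR-10a-5p in 2, and all 4 stayed above 0 in the 15 refits. After median-ratio rescaling 12 mesenchymal, 14 epithelial, 8 let-7 and 0 miR-181 differences were above 0, as before. The count of 17 miRNAs higher in every O3 mouse, followed through left-out mice after the data were seen, ranged from 18 to 34, with 31 without FA replicate 3 and 34 without O3 replicate 2. Leaving out a mouse can only keep or raise this count, so the range does not measure its stability. No miRNA passed any interaction with co-ex males or KO females under any setting (counts from 0 to 0 with a mouse left out), while against SP-A2 females the count went from 0 to 1 (miR-34c-5p, without FA replicate 1 of the co-ex females). The difference in detected miRNAs was 21.75 at a minimum of 10, and between 14.75 and 34.25 with a mouse left out.

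The replicate numbers did not pair the mice (correlations of same-numbered deviations of -0.08, 0.02, -0.01 and -0.10). With the number as a block 5 miRNAs were called, of which 3 were among the 4, and 0 in each interaction. Few reads limit the low miRNAs, and differences of miRNAs at 0 depend on the added value of 1. Many miRNAs were at 0 in FA replicate 4, though its 625825 reads exceeded those of FA replicates 1 and 2 (487872 and 210710). Brought to an equal number of reads, FA replicate 4 held 172 miRNAs and the other FA mice 226 to 235. The reason was not tested.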
